A study of Mus musculus with 8 samples.

Results

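The 10 cytokine genes described here, Ifng, Tnf, Il6, Il1a, Il1b, Il1rn, Il10, Il4, Il17a and Il33, are products of T cells, natural killer T (NKT) cells, macrophages and stressed tissue cells that act in the liver injury caused by concanavalin A (ConA). They were taken by symbol from a table of 21899 genes, and all 10 were found. RNA sequencing was done on liver taken 8 h after ConA from mice of 2 genotypes. The 4 wild-type and the 4 P2X4R-deficient libraries all came from ConA-treated animals, and livers without ConA were not analysed here. The deficient genotype is a knockdown in the sample labels and P2X4R-/- in the series description, and strain, sex and age are not given in the labels. P2rx4, which encodes the P2X4 ATP receptor, stood at 44.2% of its wild-type level in deficient livers (95% interval 33.2% to 58.9%, edgeR adjusted p = 0.00481), the direction its label gives. Albumin (Alb), the main product of hepatocytes, had a mean of 67900 CPM (reads scaled to library size) with P2X4R deficiency and of 88900 CPM without it.

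ConA cross-links receptors on T cells, and in mice the injury that follows depends on CD4+ T cells, NKT cells and Kupffer cells, the resident liver macrophages. Interferon gamma (Ifng) and tumour necrosis factor (Tnf) drive the death of hepatocytes. Interleukin 6 (Il6) induces the acute phase response, and the interleukin 1 agonists Il1a and Il1b share a receptor that the antagonist encoded by Il1rn blocks. Interleukin 10 (Il10) dampens the response, interleukin 4 (Il4) is a product of NKT cells, interleukin 17A (Il17a) of Th17 and related cells, and interleukin 33 (Il33) is a nuclear alarmin released by damaged cells. All of these were measured as messenger RNA in whole liver, where a fall in the number of cells of a type and a fall in RNA per cell cannot be told apart.

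The start regions of the genes that fell in deficient livers, Il1a and Il6, are shown with those of Il1b, the neighbour of Il1a, and Tnf, which did not pass the test. They come from RefSeq on GRCm38.p6 and run from 250 bases before to 50 bases after the gene start, 5′ to 3′ on the strand of the gene. Il1a lies at chr2:129309923-129310222 (minus strand), Il1b at chr2:129371090-129371389 (minus strand), Il6 at chr5:30012864-30013163 (plus strand) and Tnf at chr17:35201958-35202257 (minus strand). Capitals mark matches, on either strand, to TGANTCA (AP-1-like, with any base at its centre), TATAAA (the TATA box) or an NF-kB-like motif. The NF-kB-like motif allows any base at the 2 central positions of GGGATTTTCC. All these letters were chosen with the sequences in view.
Il1a: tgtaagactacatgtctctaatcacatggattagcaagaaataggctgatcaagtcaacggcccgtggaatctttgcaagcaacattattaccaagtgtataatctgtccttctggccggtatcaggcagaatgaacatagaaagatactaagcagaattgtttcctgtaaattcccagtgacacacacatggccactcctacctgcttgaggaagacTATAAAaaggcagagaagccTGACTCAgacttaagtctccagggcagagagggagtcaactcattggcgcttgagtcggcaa
Il1b: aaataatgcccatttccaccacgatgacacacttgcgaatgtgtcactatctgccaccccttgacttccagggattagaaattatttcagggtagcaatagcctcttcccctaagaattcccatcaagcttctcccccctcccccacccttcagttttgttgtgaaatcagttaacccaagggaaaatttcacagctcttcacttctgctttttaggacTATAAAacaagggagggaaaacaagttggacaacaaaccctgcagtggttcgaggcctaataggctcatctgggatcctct
Il6: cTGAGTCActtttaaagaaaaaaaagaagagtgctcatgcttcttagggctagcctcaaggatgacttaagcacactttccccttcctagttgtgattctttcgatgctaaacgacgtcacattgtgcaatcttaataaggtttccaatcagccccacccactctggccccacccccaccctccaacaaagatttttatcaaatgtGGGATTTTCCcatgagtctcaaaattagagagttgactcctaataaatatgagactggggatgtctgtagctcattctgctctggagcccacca
Tnf: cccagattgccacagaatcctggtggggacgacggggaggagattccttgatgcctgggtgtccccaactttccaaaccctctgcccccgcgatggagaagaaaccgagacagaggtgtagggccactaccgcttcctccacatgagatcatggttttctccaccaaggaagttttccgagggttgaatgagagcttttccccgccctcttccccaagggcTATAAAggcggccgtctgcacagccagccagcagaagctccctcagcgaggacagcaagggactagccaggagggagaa

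Both genes that fell carried a TGANTCA match, which began 12 bases before the start in Il1a and 249 bases before it in Il6. The matches did not overlap one another. Neither Il1b nor Tnf held these letters in the window. Over all 32851 start regions in the RefSeq table, 7.81% held TGANTCA, and among the 9 cytokines with an entry it was found in a window of Il1a, Il6, Il1rn and Il17a. The match read TGACTCA in Il1a, TGAGTCA in Il6 and Il1rn, and TGAATCA in Il17a. The NF-kB-like motif was found in 1.47% of all regions and, among these cytokines, in Il6, 44 bases before the start. A TATA box match stood 29 to 32 bases before the start of Tnf, Il1b and Il1a. The same held for Ifng, Il17a and a window of Il33, which are not shown. TATAAA on either strand was found somewhere in a window of 7 of the 9 cytokines and in 13.6% of all regions. The 9 cytokines have 13 windows, so a count by gene and a share by region are not on the same base. These matches describe letters and show no binding.

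The cytokines covered a wide range of abundance. Levels were compared per gene length as FPKM, the authors' read counts scaled by gene length and library depth. In wild-type livers the order of the medians was Il1rn at 111 FPKM, Il33 at 47.0, Tnf at 1.95, Il1a at 1.65, Il1b at 1.55, Ifng at 1.25, Il6 at 1.2 and Il10 at 0.678. Il1rn stood above Il33 in every library, by 2.27 to 6.66 times, and both stood above all other members. From Tnf to Il6 the wild-type ranges overlapped, at 1.13 to 3.32 FPKM for Tnf and 0.356 to 2.22 FPKM for Il6, so the order of those 5 is not firm. In deficient livers the medians ran from Il1rn at 123 FPKM and Il33 at 24.4 to Tnf at 1.36, Il1b at 1.22, Ifng at 0.685, Il1a at 0.542, Il10 at 0.364 and Il6 at 0.315. The antagonist transcript was thus the most abundant of the 10 in both genotypes.

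**Figure D1:**
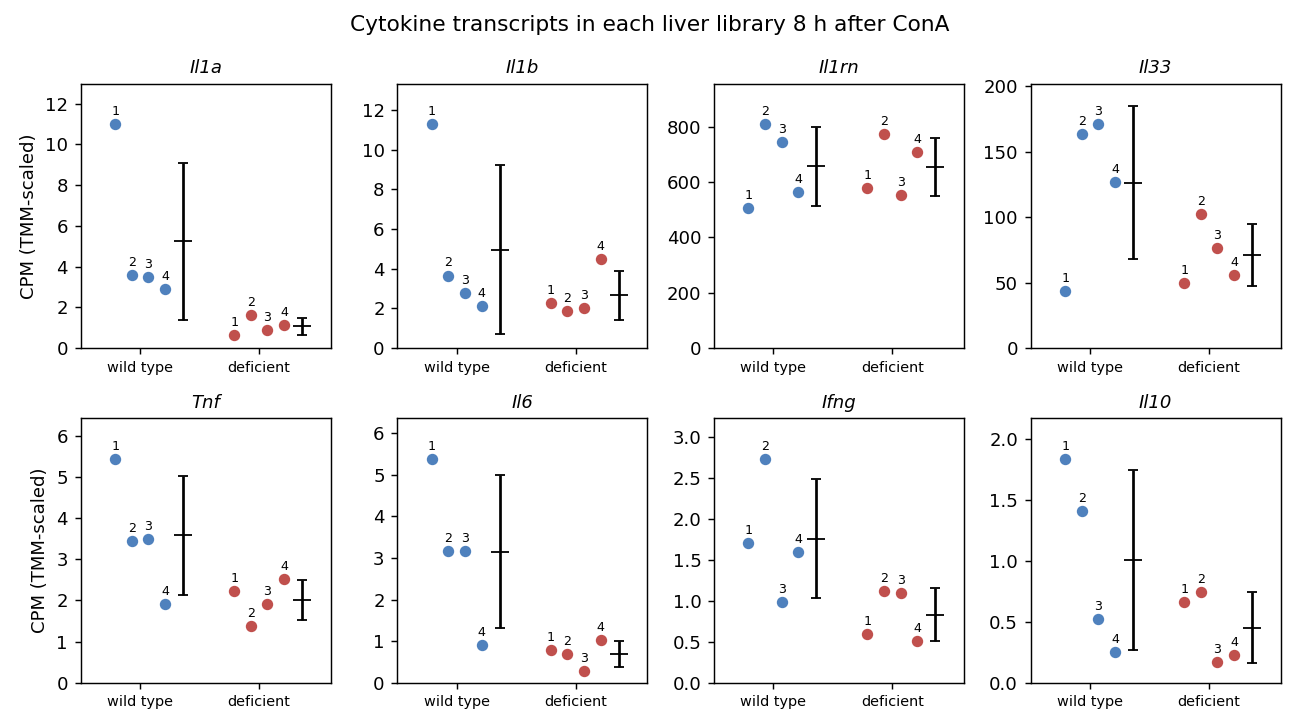
Level of each tested cytokine in CPM, scaled by the TMM (trimmed mean of M-values) method, in each library (points, numbered by replicate), with the mean and SD of each group of 4 beside them. The groups are apart for Il1a, where wild type 1 is far above the other wild-type libraries at 11 CPM, and overlap for the other 7.

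Of the 10 genes, 8 passed the expression filter and were tested together with all other genes. Il1a and Il6 fell and 0 rose, so 25.0% were called, against 19.9% of the 11380 genes tested (10.6% that fell and 9.27% that rose). A share of 2 in 8 is near that background and is no result about the set. The 8 fold changes had a median of -0.98 on the log2 scale, whereas the median over all genes tested was 0.00. An unadjusted p under 0.05 was reached by 5 of the 8, against 35.2% of all genes tested. Il4 and Il17a were below the filter.

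Il1a (ENSMUSG00000027399), the interleukin 1 agonist that acts as an alarmin when cells die, was lower in every deficient liver. Deficient libraries 1 to 4 held 11, 26, 15 and 20 Il1a reads, and wild-type libraries 1 to 4 held 174, 51, 53 and 45. No deficient library reached the lowest wild-type one, and wild type 1 was far above the rest. Mean Il1a was 1.07 ± 0.412 CPM with P2X4R deficiency and 5.24 ± 3.86 CPM without (SD, n = 4). The log2 fold change was -2.28 (SE 0.48, 95% interval -3.32 to -1.25, edgeR adjusted p = 0.0104), which leaves 20.5% of wild type. Groups apart in this way, with the deficient group lower, were found for 12.3% of all genes tested. Without wild type 1 the fold change was -1.64 (SE 0.36) and still passed (adjusted p = 0.0182), with 45 to 53 reads in the remaining wild-type libraries.

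Il1b (ENSMUSG00000027398), the agonist that macrophages release after caspase-1 cleavage, lies 54.6 kb from Il1a on chromosome 2 in the coordinates of the table. Its reads numbered 38, 30, 35 and 78 in deficient and 179, 52, 42 and 33 in wild-type libraries 1 to 4. The groups overlapped, and the means were set apart mostly by wild type 1. Il1b did not pass, with a log2 fold change of -0.90 (SE 0.51, edgeR adjusted p = 0.233) with a 95% interval of -2.0 to 0.21. Without wild type 1 it was -0.10 (SE 0.37, adjusted p = 0.871). Summed reads stood in a proportion of 0.534, and counting error alone spans 0.442 to 0.644, narrower than the interval from replicates of 25.0% to 115% of wild type.

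Within each library, the proportion of Il1a to Il1b reads separated the genotypes. Wild-type libraries 1 to 4 held 0.972, 0.981, 1.26 and 1.36 Il1a reads per Il1b read. In deficient libraries the ratios were 0.289, 0.867, 0.429 and 0.256. Every deficient liver was below every wild-type one, wild type 1 sat with the other wild-type livers on this measure, and deficient 2 was nearest to the wild-type range. On the log2 scale, with 0.5 reads added to each count, the ratio was -1.27 ± 0.78 with P2X4R deficiency and 0.18 ± 0.25 without (SD, n = 4), a difference of -1.45. The two-sided p from all exact permutations was 0.0286, the lowest that 4 against 4 libraries can reach. It was 0.114 when adjusted over the 4 ratios tested, which misses 0.05. A single ratio at the lowest p could not pass after that adjustment, so the miss decides nothing either way. Leaving out wild type 1 gave a difference of -1.52.

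Il1rn (ENSMUSG00000026981), the natural blocker of the interleukin 1 receptor, was at the same mean level in both genotypes. Deficient libraries held 9608, 12435, 9558 and 12359 reads and wild-type libraries 8035, 11522, 11283 and 8816. The ranges overlapped, at 553 to 772 CPM for the deficient and 508 to 810 CPM for the wild-type group. Its log2 fold change was -0.01 (SE 0.19, edgeR adjusted p = 0.984), and its 95% interval of -0.42 to 0.41 leaves room for 74.5% to 133% of the wild-type level. Its sign turned with the scaling, at 0.14 when libraries were scaled by total reads alone, which moved the median of all genes by the same 0.14. Reads of Il1rn per read of Il1b numbered 253, 414, 273 and 158 in deficient and 44.9, 222, 269 and 267 in wild-type libraries. Wild type 1, with the most Il1b, had the lowest ratio, and the log2 difference of 0.66 had an exact permutation p = 0.429 (0.858 adjusted over the 4 ratios) and was 0.04 without that library.

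**Figure D2:**
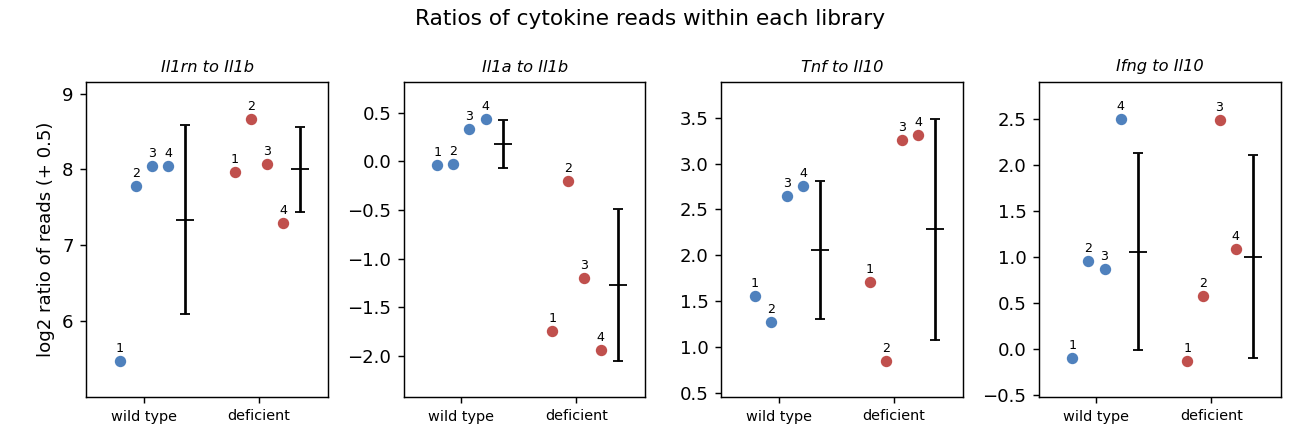
Log2 ratio of reads of 2 cytokines in the same library, with 0.5 added to each count, by genotype (points numbered by replicate; bars are the mean and SD, n = 4). For Il1a to Il1b all deficient libraries lie below all wild-type libraries, with means of -1.27 and 0.18. In the other 3 panels the groups overlap.

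Il6 (ENSMUSG00000025746), which signals to hepatocytes through the receptor chains Il6ra and Il6st, fell in deficient livers. Deficient libraries held 13, 11, 5 and 18 reads and wild-type libraries 85, 45, 48 and 14. Wild type 4, with 0.897 CPM, lay inside the deficient range of 0.289 to 1.03 CPM, and the other 3 wild-type libraries were at 3.16 to 5.38 CPM. Mean Il6 was 0.698 ± 0.310 CPM with P2X4R deficiency and 3.15 ± 1.83 CPM without (SD, n = 4). On the log2 scale the change was -2.16 (SE 0.53, 95% interval -3.32 to -1.01, edgeR adjusted p = 0.0180), or 22.3% of wild type. The call was lost without deficient 3, the lowest library, at -1.90 (adjusted p = 0.051), and held without wild type 1 at -1.79 (adjusted p = 0.0421). It was not covered by the FPKM test, because its FPKM reached the minimum of 0.5 in fewer than 4 libraries.

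Tnf (ENSMUSG00000024401), made early by macrophages and T cells, did not pass the test. Reads were 37, 22, 33 and 44 in deficient and 86, 49, 53 and 30 in wild-type libraries. All 4 deficient libraries were below the wild-type median, while wild type 4, at 1.92 CPM, lay inside the deficient range of 1.37 to 2.53 CPM. Its log2 fold change was -0.83 (SE 0.35, edgeR adjusted p = 0.112), and the 95% interval ran from 33.3% to 95.3% of wild type. Without wild type 1 it was -0.57 (adjusted p = 0.266).

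Ifng (ENSMUSG00000055170), the main cytokine of activated T, NKT and natural killer (NK) cells in this injury, was counted in few reads. Deficient libraries held 10, 18, 19 and 9 and wild-type libraries 27, 39, 15 and 25. Wild type 3 lay inside the deficient range and the other wild-type libraries above it. The mean was 47.7% of wild type, with a 95% interval of 25.1% to 90.6%, and the log2 fold change of -1.07 (SE 0.43) did not pass (edgeR adjusted p = 0.0944). Leaving out any library gave -0.77 to -1.27 with adjusted p of 0.0868 to 0.267. The wild-type library with most Ifng was wild type 2, whereas wild type 1 had most Il1a, Il1b, Tnf, Il6 and Il10.

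Il10 (ENSMUSG00000016529), the restraining cytokine of macrophages and regulatory T cells, had 11, 12, 3 and 4 reads in deficient and 29, 20, 8 and 4 in wild-type libraries. Each genotype had a pair of higher and a pair of lower libraries, and the ranges overlapped at 0.174 to 0.745 CPM and 0.256 to 1.84 CPM. Il10 had a log2 fold change of -1.15 (SE 0.66, edgeR adjusted p = 0.241), with a 95% interval of -2.58 to 0.29. It was -0.69 without wild type 1 (adjusted p = 0.514). The ratios of effector to restraining transcripts overlapped between the genotypes. The log2 ratio of Tnf to Il10 was 2.28 ± 1.21 with P2X4R deficiency and 2.06 ± 0.76 without (SD, n = 4, exact permutation p = 0.714, 0.914 adjusted over the 4 ratios). For Ifng to Il10 the values were 1.0 ± 1.1 and 1.05 ± 1.08 (exact permutation p = 0.914, also 0.914 adjusted).

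Il33 (ENSMUSG00000024810), the alarmin held in nuclei of stellate, endothelial and other structural cells, was well counted and yet did not pass. Deficient libraries held 819, 1648, 1323 and 967 reads and wild-type libraries 689, 2322, 2586 and 1974. Wild type 1 was the lowest of all 8 libraries at 43.6 CPM, and the other 3 wild-type libraries, at 127 to 171 CPM, stood above all deficient ones, at 49.4 to 102 CPM. The deficient mean was 56.3% of wild type (95% interval 32.5% to 97.5%, log2 fold change -0.83, SE 0.36, edgeR adjusted p = 0.126). Without wild type 1 it was -1.13 (SE 0.24) and passed (adjusted p = 0.0182), where 9.14% of all genes tested fell. Counting error was small here, since summed reads stood in a proportion of 0.567 and counting alone spans 0.547 to 0.588. Stellate cell markers summed to 75.4 to 128 CPM in the deficient and 128 to 194 CPM in the wild-type group. Of 5 tested, 2 fell, Reln and Dcn, or 40.0% called against 19.9% of all genes tested. Endothelial markers summed to 41.6 to 65.7 and 33.4 to 84.1 CPM, and 0 of 5 were called. The part of these cells in the level of Il33 was not tested, and wild type 1, with the least Il33, had the most stellate and endothelial marker RNA. Reln passed with each library removed in turn, whereas Dcn did not pass once any of deficient 2, 3 or 4 or any of wild type 1, 2 or 3 was removed (adjusted p = 0.0519 to 0.0798).

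**Figure D3:**
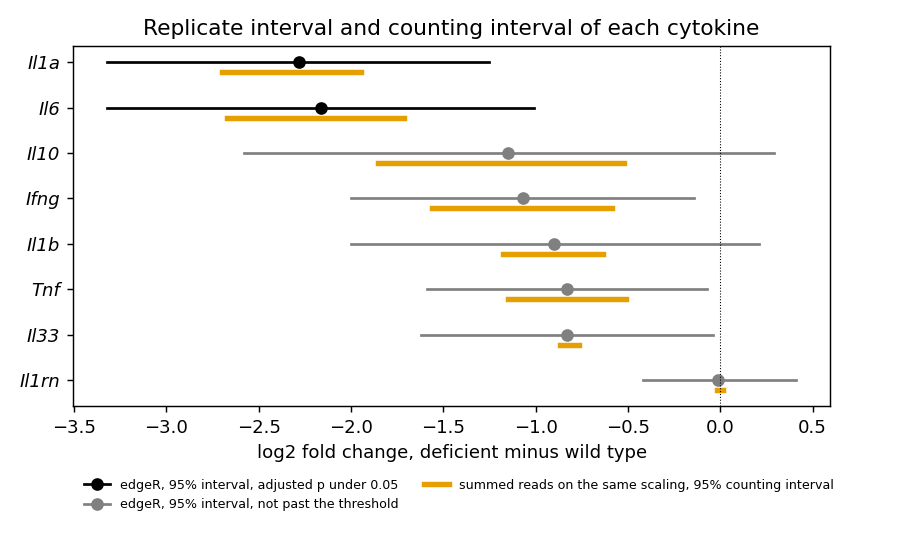
Log2 fold change of each tested cytokine, deficient minus wild type, with the 95% interval from the edgeR fit over 4 against 4 libraries (line and point; black where the adjusted p is under 0.05) and the 95% counting interval of the summed reads under the same scaling (orange). The counting interval is narrower for all 8, most visibly for Il33 and Il1rn, whose intervals from replicates span -1.62 to -0.04 and -0.42 to 0.41.

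Il4 (ENSMUSG00000000869) and Il17a (ENSMUSG00000025929) were at or near the limit of detection. Il4 had 0, 2, 2 and 3 reads in deficient and 2, 0, 1 and 0 in wild-type libraries. The 7 deficient reads against 3 wild-type reads give 2.11 after scaling, and counting error spans 0.481 to 12.6, so no difference was detectable at this depth. Il17a had 0 reads in 7 libraries and 3 reads in wild type 3. A count of 0 allows up to 3 reads, or 0.172 to 0.211 CPM in these libraries, so the absence of Il17a reads limits its level to that. Among cytokines that helper T cells make, Il2 had at most 5 reads in any library, Il5 at most 3, Il13 and Il17f at most 2, and Il21 from 3 to 11.

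Wild type 1 stood apart in several members at once, and in cell markers. It held the most Il1a, Il1b, Tnf, Il6 and Il10 and the least Il33 and Il1rn of the wild-type libraries. The 6 Kupffer cell markers, of which 6 were tested and none was at 0 in all libraries, summed to 101 CPM in wild type 1, 50.5 in wild type 2, 37 in wild type 3 and 28.7 in wild type 4. In deficient libraries that sum was 24.5 to 29.9 CPM. Of those 6 markers 3 fell, Cd5l, Adgre1 and Clec4f, and 0 rose, against 10.6% of all genes tested that fell. The count was 0 when deficient 1 or deficient 3 was removed, where Cd5l had an adjusted p of 0.0537 and 0.062, and in both FPKM tests. It was 1, Cd5l, when wild type 1 was removed, with Adgre1 at -0.98 (adjusted p = 0.095) and Clec4f at -0.60 (adjusted p = 0.118). It was also 1 when deficient 2, deficient 4 or wild type 2 was removed, and with voom, library size alone or the replicate block. Monocyte markers summed to 14.7 to 23.0 CPM in the deficient and 16.0 to 46.1 CPM in the wild-type group. Of 5 tested, 1 fell, Csf1r at -1.12, and 0 rose, and the median of the list was 0.37. As 19.9% of all genes tested were called, 1 in 5 is near that background and is no result about monocytes. Ly6c2 was at 0.80, Itgam at 0.53, Fcgr1 at 0.37 and Lyz2 at -0.71, and none of them passed. Csf1r did not pass once wild type 1 was removed (-0.70, adjusted p = 0.0871). It also failed with any of deficient 2, 3 or 4 or wild type 2 removed. In CPM, Il1a, Il1b and Il10 had the same order over the wild-type livers as the Kupffer cell sum. The monocyte, neutrophil, endothelial and stellate cell sums had that order too, so it is not particular to Kupffer cells. The part of Kupffer cell number in the falls of Il1a and Il6 was not tested. In wild type 4 the Kupffer cell marker sum lay within the deficient range. There Il1a was still above every deficient library at 2.88 CPM while Il6 was not.

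Markers of the lymphocytes that make Ifng were mostly sparse. The 7 T cell markers found in the table summed to 5.61 to 7.75 CPM with P2X4R deficiency and 5.28 to 9.55 CPM without, with 0 of 3 tested genes called. The NK and NKT cell list summed to 35.5 to 53.2 and 33.9 to 68.5 CPM, with Gzmb alone at a mean of 22.5 and 32.1 CPM. Of 6 tested genes 1 was called, or 16.7% against 19.9% of all genes tested. It was Gzma, which encodes a granzyme of killer cells, at -0.84 (adjusted p = 0.0428). The median of the list was -0.02. Prf1 was at 0.83, Nkg7 at 0.42, Il2rb at 0.07, Klrk1 at -0.12 and Gzmb at -0.51, and none of them passed. Leaving out wild type 1 put Gzma at -0.70 (adjusted p = 0.0967), and it also failed when any of deficient 1, 2 or 3 or either of wild type 2 and 4 was removed (adjusted p = 0.0671 to 0.0956). Defining markers were sparse, with Cd3e at 0 to 3 reads and Ncr1 at 0 to 6 reads per library. Neutrophil markers summed to 80.3 to 160 CPM in deficient and 22.6 to 90.3 CPM in wild-type livers. Of 7 tested, 2 rose, Mmp8 and Cxcr2, or 28.6% called against 19.9% of all genes tested. With deficient 4 removed 0 rose, with Mmp8 at 1.37 (adjusted p = 0.063) and Cxcr2 at 1.23 (adjusted p = 0.0944), and 0 rose with wild type 3 removed. With wild type 1 removed 5 of the markers rose, S100a9, Cxcr2, Mmp8, Mmp9 and Csf3r. Removal of deficient 1 or wild type 4, or the replicate block, gave 1, and DESeq2, voom, FPKM or library size alone gave 3. Deficient 4, which had the most neutrophil marker RNA, also had the most Il1b of the deficient libraries at 4.48 CPM, and the part of neutrophils in that value was not tested. Mast cell and basophil markers, which mark another source of Il4, reached at most 0.116 CPM with P2X4R deficiency and 0.633 CPM without, with Ms4a2 at 0 in all libraries.

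**Figure D4:**
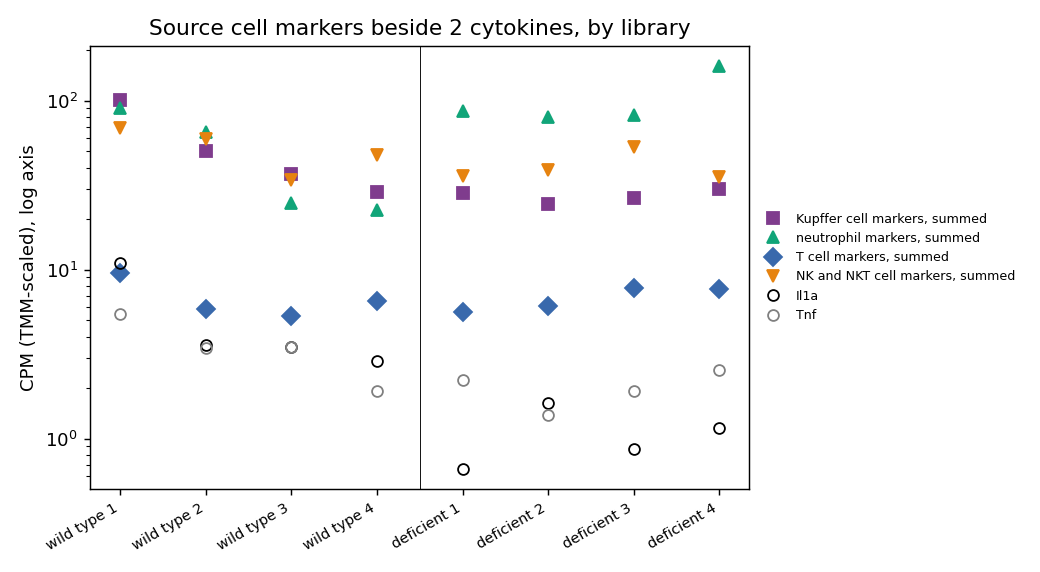
Summed CPM of marker lists for 4 candidate source cells (filled symbols) and CPM of Il1a and Tnf (open circles) in each library, on a log axis. Kupffer cell markers run from 101 CPM in wild type 1 down to 28.7 CPM in wild type 4, and the deficient libraries lie between 24.5 and 29.9 CPM.

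The members also varied together within a genotype. After the group means were taken out, log2 levels of Tnf and Il1b had a Pearson r of 0.86 over the 8 libraries (Spearman rho 0.81), Tnf and Il6 an r of 0.80 (rho 0.98), and Il1a and Il1b an r of 0.75 (rho 0.62). Il33 ran the other way, with r of -0.82 against Il1b (rho -0.69) and -0.69 against Tnf (rho -0.62), and with r of 0.72 against Il1rn (rho 0.71). Ifng showed weaker relations, with r between -0.28 and 0.32 against every other member tested. These 28 pairs come from the same 8 libraries and share their depth and scaling, and wild type 1 weighs in many of them, so they are given as a description. By the same measure the genes most like Il1a were Ppp1r3e, Ethe1 and Sms (r of 0.97 to 0.99), those most like Il1b were Lilr4b, Evl and Chchd1 (0.98 to 0.99), and those most like Il33 were Steap4, Ctnna1 and Igsf11 (0.98 to 0.99). They are the highest of 11380 genes over only 8 libraries.

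**Figure D5:**
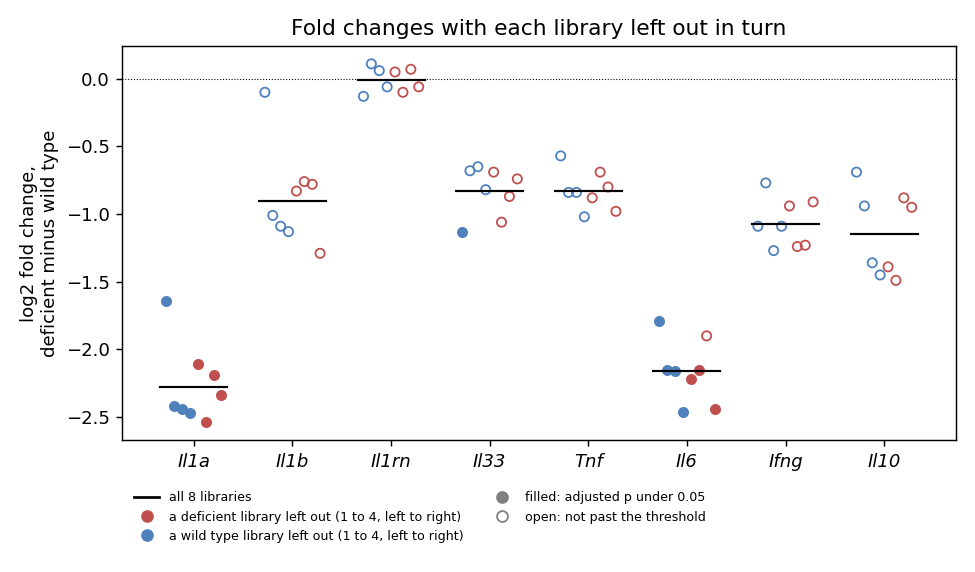
Log2 fold change of each tested cytokine with each library left out in turn (blue, a wild-type library; red, a deficient one; filled where the adjusted p is under 0.05), beside the value from all 8 libraries (black line). Removal of wild type 1 moves Il1b from -0.90 to -0.10, Il1a from -2.28 to -1.64 and Il33 from -0.83 to -1.13, and removal of deficient 3 ends the call of Il6.

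The receptors through which these cytokines act were read from a list of 18 receptor and decoy genes. Of 17 tested, 4 fell and 0 rose, and the median log2 fold change was -0.34, against 10.6% of all genes that fell. Ifngr2, the signalling chain of the interferon gamma receptor, went from a wild-type mean of 36.4 ± 2.17 CPM to a deficient mean of 22.6 ± 5.24 CPM (SD, n = 4), a log2 fold change of -0.69 (adjusted p = 0.0195). Il17ra, a receptor chain for interleukin 17A, fell by 0.70, Il6st, the shared signal chain of interleukin 6, by 0.71, and Il1rap, the accessory chain of the interleukin 1 and interleukin 33 receptors, by 0.61. The ligand-binding chains Ifngr1, at -0.03 (adjusted p = 0.924), and Il6ra, at -0.60 (adjusted p = 0.11), did not pass, nor did the TNF receptor genes Tnfrsf1a and Tnfrsf1b, each at 0.15. Il1rl1, the receptor of interleukin 33, had 0 to 4 reads per library. The receptor count was sensitive to single libraries. With deficient 3 left out it was 0, and with wild type 4 left out it was 1. It was 2 when deficient 1 or wild type 3 was removed, and 6 when deficient 2 or wild type 1 was.

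Genes that carry or limit the signals of these cytokines moved in both directions. Of 19 tested in a list of 20, 8 fell and 2 rose, or 52.6% called against 19.9% of all genes tested, with a median of -0.54. Socs3, a feedback inhibitor downstream of interleukin 6, ranged from 138 to 323 CPM with P2X4R deficiency and from 488 to 712 CPM without, a log2 fold change of -1.55 (SE 0.25, adjusted p = 0.00481). Irak2, a kinase of the interleukin 1 receptor pathway, fell by 1.25 and Jak2, a kinase of the interferon gamma receptor, by 1.39. These 3 calls held without each library in turn. Tradd, a TNF receptor adaptor, rose by 0.63, a call that ended when any of deficient 1, 3 or 4 or any of wild type 1, 2 or 3 was removed (adjusted p = 0.0682 to 0.115). Without wild type 3 the number that fell was 5.

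A list of 12 genes covered maturation, release and antagonism. Of 11 tested, 1 fell and 0 rose, or 9.09% called against 19.9% of all genes tested, with a median of 0.03. The gene was Ptgs2, which encodes the inducible cyclooxygenase, at -2.37 (adjusted p = 0.0185), at -1.45 without wild type 1 (adjusted p = 0.0356) and not past the threshold without deficient 3 (-2.11, adjusted p = 0.0539). Without wild type 1, 2 genes of this list fell. Casp1, which encodes the protease that matures interleukin 1 beta, was at 0.97 (SE 0.59, adjusted p = 0.266), and Nlrp3, the inflammasome sensor that activates it, at -1.08 (SE 0.54, adjusted p = 0.175).

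Among 29 other cytokine genes, 14 could be tested, and of these 6 fell and 1 rose, with a median of -0.99. That is 50% called, against 19.9% of all genes tested. Csf3, which encodes the granulocyte growth factor G-CSF, fell furthest, with deficient libraries at 3.24 to 10.6 CPM and wild-type libraries at 32.6 to 42.8 CPM. Its log2 fold change was -2.44 (SE 0.32, edgeR adjusted p = 0.0037), and -2.43 without wild type 1. Osm and Lif, of the interleukin 6 family, fell by 1.80 and 1.17, Il7, a growth factor of lymphocytes, by 1.77, Tnfsf10, the death ligand TRAIL, by 1.15, and Csf1, the macrophage growth factor, by 0.75. Ltb, which encodes lymphotoxin beta and lies beside Tnf in the genome, rose by 1.32, from 0.918 ± 0.367 to 2.31 ± 0.741 CPM (SD, n = 4). The Ltb call ended when any of deficient 1 or 4 or any of wild type 2, 3 or 4 was removed (adjusted p = 0.0644 to 0.101). With deficient 3 removed only Csf3 fell. Removal of deficient 1, wild type 1 or wild type 3 left 2 falls, and with the replicate number as a block there were 3.

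Transcription factors that set the cytokine program of lymphocytes were in part too low to test. Of 6 tested in a list of 10, 1 fell, Nfatc1, which acts downstream of calcium entry in T cells, at -0.74 (adjusted p = 0.036), or 16.7% called against 19.9% of all genes tested. That call ended when any of deficient 1 or 3 or any of wild type 1, 3 or 4 was removed (adjusted p = 0.0683 to 0.0884) and with the replicate block (adjusted p = 0.0718). Removal of deficient 4 gave 2 falls in the list, of deficient 2 gave 3, and of either wild type 1 or 4 gave 0. Tbx21, which drives Ifng in T and NK cells, was at 0.10 (adjusted p = 0.924). Gata3, a factor needed for Il4 in T cells, had 1 to 17 reads per library and was not tested.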

How the data were processed

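Per the labels' protocols, Trizol extraction was followed by selection of polyadenylated RNA and NovaSeq sequencing. The submitters' processing notes name cutadapt and HISAT2 2.0.5. Not given in the sources used here are the counter, whether it used strand, its annotation and the build, so table coordinates carry no build name. Per the file headers, the deposited table holds, as a raw read count and as FPKM, a value per gene and library. FPKM values were computed by the authors, and counts and lengths gave the same values within 7e-05%. No other gene of the table overlaps a member.

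Counts as deposited were tested with edgeR 4.0.16 (R 4.3.3), using the quasi-likelihood test with TMM scaling, the default filter (minimum count 10), no covariate and Benjamini-Hochberg adjustment over 11380 genes at a threshold of 0.05. Adjusted p-values come from this test unless another tool is named. CPM is TMM-scaled. The standard error is the fold change divided by the square root of F. Library totals were 15445285 to 16604190 reads. Counting intervals (95%, exact binomial on summed reads) and floors (3 reads) cover counting error only, as PCR reads carry no molecular identifiers. The labels do not say that libraries came from separate animals, so p-values measure the spread between these samples. The edgeR fit was tested on simulated data.

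The members and lists were chosen with earlier results of these data known. All 10 members are named, with, for each list, up to 4 called genes of smallest p and any gene needed to name a small count. Others (Il2, Il5, Il13, Il17f, Il21, receptor chains, Casp1, Nlrp3, Tbx21, Gata3, Lif, Csf1, uncalled monocyte markers) were chosen after their values were seen. Some genes of the lists are not reported here. A symbol with several identifiers (20 in the table) stood for the one with most reads. Alternatives were library size alone, DESeq2 1.42.0, 2 other filters, limma-voom and limma 3.58.1 on log2 FPKM (pseudocount 1 or 0.1, FPKM of at least 0.5 in 4 libraries), robust empirical Bayes, a replicate block and each library left out.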

Additional observations from a re-analysis of the deposited data

Results flagged for a closer look

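In 3 of 16 groups of 4 libraries screened, 1 library stood far from the other 3 by Dixon's test, which chance does in about 1 group in 20. Wild type 1 was at 11 CPM for Il1a, against 2.88 to 3.59 CPM in the other wild-type libraries. It was at 11.3 CPM for Il1b, against 2.12 to 3.66 CPM. Deficient 4 was at 4.48 CPM for Il1b, against 1.86 to 2.29 CPM in the other deficient libraries.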

How the results depend on the processing

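Il1a fell in all alternatives tried. Il6 fell in all that tested it except without deficient 3, and the FPKM tests, which did not cover Il6, called 1 member at either pseudocount. With a library left out, 1 to 3 members fell and 0 rose. Il1rn was at 0.14 with library size alone, 0.02 without an expression filter, 0.01 at 1 CPM, with voom or with the replicate block, 0.15 in the FPKM tests, and -0.13 to 0.11 with a library left out. Over all genes, 1731 rose with library size alone, and 1602 and 1594 in the FPKM tests at a pseudocount of 1 and 0.1 (843, 813 and 814 fell), and 454 to 1079 rose and 528 to 1309 fell with a library left out.

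Receptors that rose numbered 1 with library size alone, DESeq2 or FPKM, and those that fell 0 to 6 with a library left out. Signalling genes that rose numbered 1 with no filter or the block and 1 to 2 with a library left out, where 5 to 9 fell. In the maturation list 1 rose with library size alone, 2 fell with DESeq2, and 0 to 1 rose and 0 to 2 fell with a library left out. Of other cytokines, 3 fell in the FPKM test at a pseudocount of 1 and with the block, and 1 to 6 fell and 0 to 1 rose with a library left out. Of the transcription factors, 0 fell with library size alone, FPKM or the block, 2 without a filter and 0 to 3 with a library left out.

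The replicate numbers share no stated origin, and same-numbered libraries deviated together with correlations of 0.13, -0.11, 0.07 and -0.10. The replicate block gave 761 rises and 1007 falls, and Il1a at -2.08 and Il6 at -2.05. The ratio of Il1a to Il1b differed by -1.22 to -1.80 with a library left out, where too few libraries remain for a test at 0.05. Members with under 30 reads per library are limited by depth.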

Other observations

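Foxp3 (ENSMUSG00000039521), which encodes the defining transcription factor of regulatory T cells, a source of Il10, was below the expression filter and was chosen after its values were seen. Deficient libraries held 0, 1, 2 and 0 reads and wild-type libraries 11, 15, 8 and 18, so the groups did not overlap. Among the genes past the filter, 12.3% had groups apart with the deficient group lower. Scaled to library size, wild-type reads outnumbered the 3 deficient reads by 19.2 to 1, and counting error spans 6.22 to 96.2. In the edgeR fit with no expression filter its adjusted p was 0.00648. The exact permutation p was 0.0286, the smallest possible. Any gene whose groups are apart reaches that value, so it adds nothing to the reads. Il21, a cytokine of helper T cells, was also below the filter, with 4, 11, 11 and 5 reads in deficient and 4, 3, 3 and 3 in wild-type libraries (adjusted p = 0.326 with no expression filter). Il22, a cytokine that protects hepatocytes, had 0 reads in all deficient libraries and 4, 2, 0 and 0 in wild-type libraries (adjusted p = 0.182 with no expression filter).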
